A study of Macaca mulatta with 16 samples.

Results

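The genes described here are the red cell globins HBA1, HBA2, HBB, HBD and HBG1, the red cell genes AHSP and ALAS2, and MB, which encodes myoglobin. They were measured in extraocular muscle, the muscles that move the eye, of adult rhesus macaques. Members were all probe sets whose platform gene symbol, alone or in a list of several symbols, was 1 of these 8 genes. This gave 18 of 44928 probe sets: 16 of 22283 on the human array type U133A and 2 of 22645 on U133B. HBA1 and HBA2 share 6 probe sets, HBG1 shares its 3 with HBG2, HBB has 3, and HBD and AHSP have 1 each. ALAS2 and MB each have 1 on either type, and that of MB on U133B also carries the symbol LOC284912. The 12 probe sets of HBA1/HBA2, HBB and HBG1/HBG2 are of a design (suffix x) that can bind other similar transcripts, so they cannot separate HBA1 from HBA2 and may share signal among related globins.

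Red cells carry oxygen on haemoglobin, which joins alpha chains (HBA1, HBA2) to beta chains (HBB in adults, HBD as a minor form, HBG1 and HBG2 in the fetus). Globin RNA in a dissected muscle is known as a mark of the blood it holds, since young red cells keep it after losing their nucleus. Myoglobin is made by the muscle fibre itself, stores oxygen there and is richest in oxidative fibres.

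Each muscle is built of a global layer next to the eyeball and an orbital layer facing the bony orbit. The 4 groups were orbital layer and global layer, taken with a laser by microdissection, and whole medial rectus and whole lateral rectus, with 2 arrays a group on each array type. Per the labels, layer RNA went through T7 amplification before the standard array protocol, and this is not named for whole muscle, so dissection, amplification and sample kind cannot be told apart. No treatment is given for any group. The labels tie no array to an animal, so p-values speak only of how far these samples spread, which may be technical. On U133A, the title of orbital layer replicate 1 names the orbital layer and its source name the global layer (the title was used); on U133B, the source name of global layer replicate 1 does not say which layer it is. Values are intensities scaled per array by the authors, in arbitrary units; the number of arrays limits their precision.

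The label of muscle held on U133A: 10 of 10 skeletal muscle genes lay above the floor of the scale (146 units on U133A and 218 on U133B) on every array. Beta-actin signal at the 3' over the 5' end, a sign of RNA length, was 5.30 and 5.87 in orbital and 2.84 and 2.88 in global layers, and 0.716 to 1.04 in whole muscle. Median intensity was 476 to 587 in layers and 788 to 852 in whole muscle. The part of these differences in the comparisons below was not tested. In tissue RNA of this kind, fewer cells of a type and less RNA per cell cannot be told apart.

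**Figure D1:**
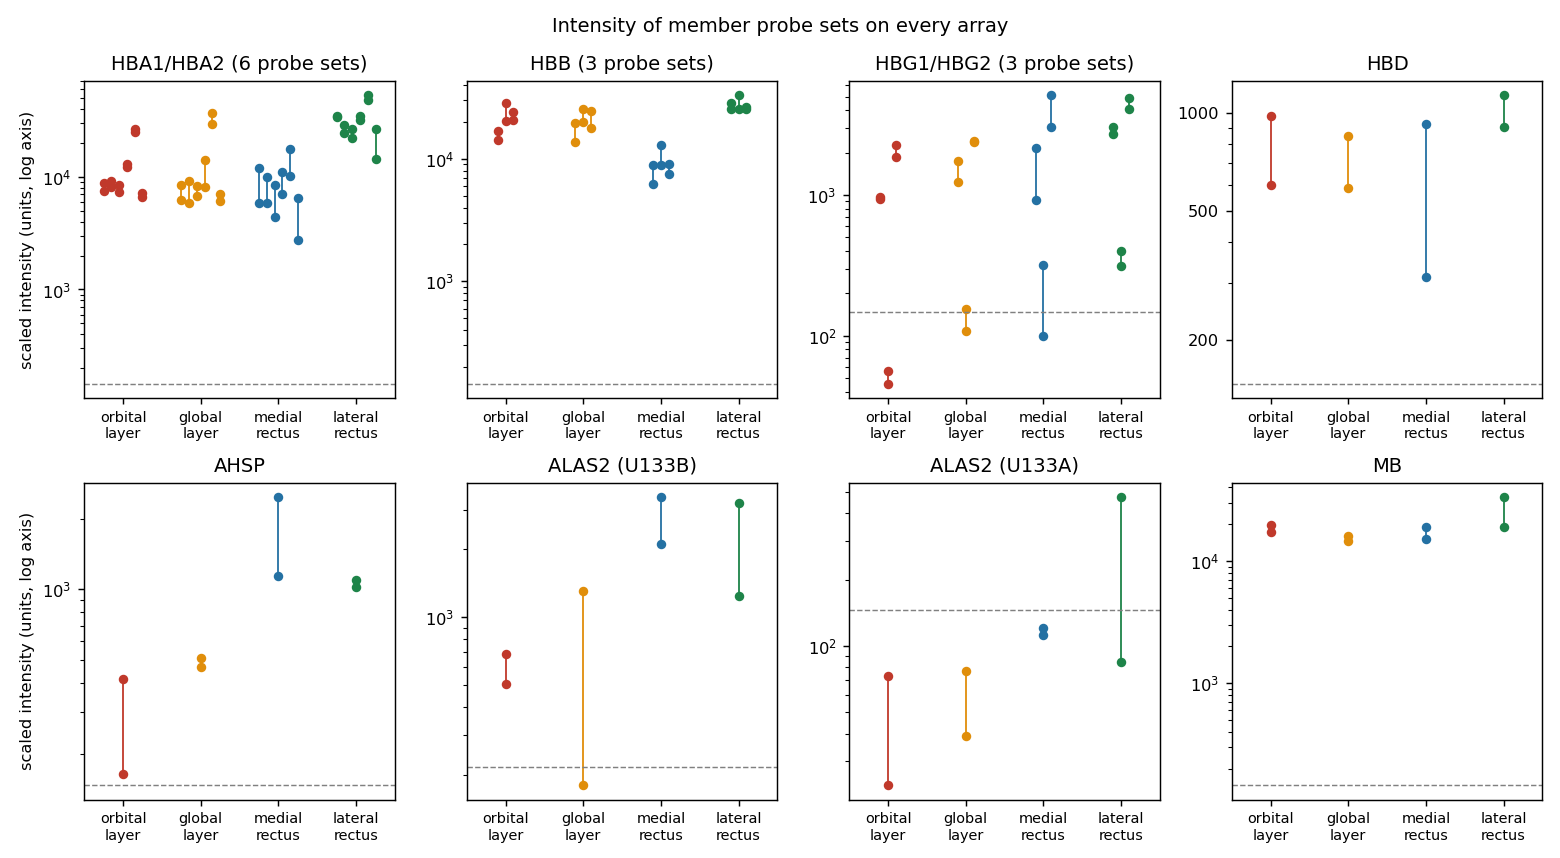
Scaled intensity (log axis, a separate range in each panel) of the member probe sets by group on U133A, or U133B where stated. Points are arrays, lines join the 2 arrays of 1 probe set, and the dashed line is the floor of the scale. LOC284912/MB on U133B is not drawn. In the HBA1/HBA2 and HBB panels the medial rectus lies below the lateral rectus, while AHSP is highest on a medial array at 2466 units.

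Adult globin probe sets set the medial rectus apart from the lateral rectus. All 6 HBA1/HBA2 probe sets and all 3 of HBB were lower on both medial arrays than on either lateral array, by 2.71- to 4.61-fold (log2 differences −1.44 to −2.20, SE 0.20 to 0.42). MB was lower as well, by 1.49-fold. AHSP, the chaperone that binds free alpha chains in red cell precursors, was higher. None of these differences passed the adjusted threshold in limma, an adjusted p of 0.05.

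HBB 217232_x_at had 8998 and 7476 units in the medial rectus, against 26211 and 25717 in the lateral rectus. The same probe set had 24132 and 20600.3 units in the orbital and 17881 and 24338 in the global layer. The lateral arrays were close to each other and above both layers, and the medial arrays were below all others. The log2 difference between the recti was −1.66 ± 0.20 (SE), or 3.17-fold lower in the medial rectus, with adjusted p = 0.173 in limma. HBB 209116_x_at had 8967 and 6275 units in the medial rectus, against 28295 and 25506 in the lateral rectus (a log2 difference of −1.84 ± 0.23, adjusted p = 0.173 in limma). For HBB 211696_x_at, the values were 12874 and 8909 in the medial, against 32867 and 25643 in the lateral rectus (−1.44 ± 0.24, adjusted p = 0.469 in limma). For these 3 probe sets the medial rectus was the lowest of the 4 groups and did not overlap the next.

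The alpha-globin probe sets had log2 differences of −2.20 to −1.82, and whether these exceed those of HBB was not tested. HBA1/HBA2 204018_x_at had 11993 and 5875 units in the medial rectus, against 34621 and 33544 in the lateral rectus (a log2 difference of −2.02 ± 0.31, 4.06-fold lower, adjusted p = 0.310 in limma). HBA1/HBA2 211745_x_at had 10891 and 6991 in the medial, against 34279.6 and 31675 in the lateral rectus (−1.92 ± 0.24, adjusted p = 0.173 in limma). HBA1/HBA2 217414_x_at had the largest difference of the 9, at 6480.1 and 2763 in the medial, against 26629.9 and 14283 in the lateral rectus (−2.20 ± 0.42, adjusted p = 0.736 in limma). The lateral rectus was the highest group on all 6 and overlapped no other group. Below it the order varied: the medial rectus overlapped a layer on 5 of the 6 and stood alone at the bottom on 214414_x_at, at 17488 and 10195 units against 52407 and 48145 in the lateral rectus (−1.91 ± 0.27, adjusted p = 0.243 in limma). The others were 209458_x_at, with 9856 and 5788 units in the medial, against 28879 and 24479 in the lateral rectus, and 211699_x_at, with 8351 and 4380.0 against 26643 and 22014 (adjusted p = 0.310 in limma for both).

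Among 11907 probe sets tested between the recti on U133A, 0 passed in limma and 333 (2.8%) had an unadjusted p under 0.05, including these 9. In the 9, groups did not overlap and the medial rectus was lower, which held for 13.6% of all probe sets tested; in 8 of the 9, every medial array was at least 2-fold below every lateral array, which held for 0.302% of all. The 8 smallest p-values of the comparison (2.61e-05 to 0.000315) belonged to HBB and HBA1/HBA2 probe sets, and the last of the 9 ranked at place 12. The median log2 difference of the 9 was −1.91, beside 0.00 over all probe sets tested. The 9 probe sets measure the same few transcripts and are not independent.

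The number of calls changed with the filter and with the medial array left out. When only probe sets with a mean above the 75th percentile were tested, 7 passed, and all 7 were HBA1/HBA2 or HBB (adjusted p = 0.0118 to 0.0179 in limma). Without medial rectus replicate 1, 9 passed, 8 of them HBA1/HBA2 or HBB and the other UBB; without medial rectus replicate 2, 1 passed, DYRK2. The medial arrays were unlike: replicate 1 was 1.20- to 2.35-fold above replicate 2 on the 9 probe sets, whereas the lateral arrays were within 1.02- to 1.86-fold of each other. With each of the 4 arrays left out in turn, the median difference of the 9 lay between −2.24 and −1.53, and that of 217414_x_at was −2.82 without medial replicate 1 and −1.59 without medial replicate 2.

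**Figure D2:**
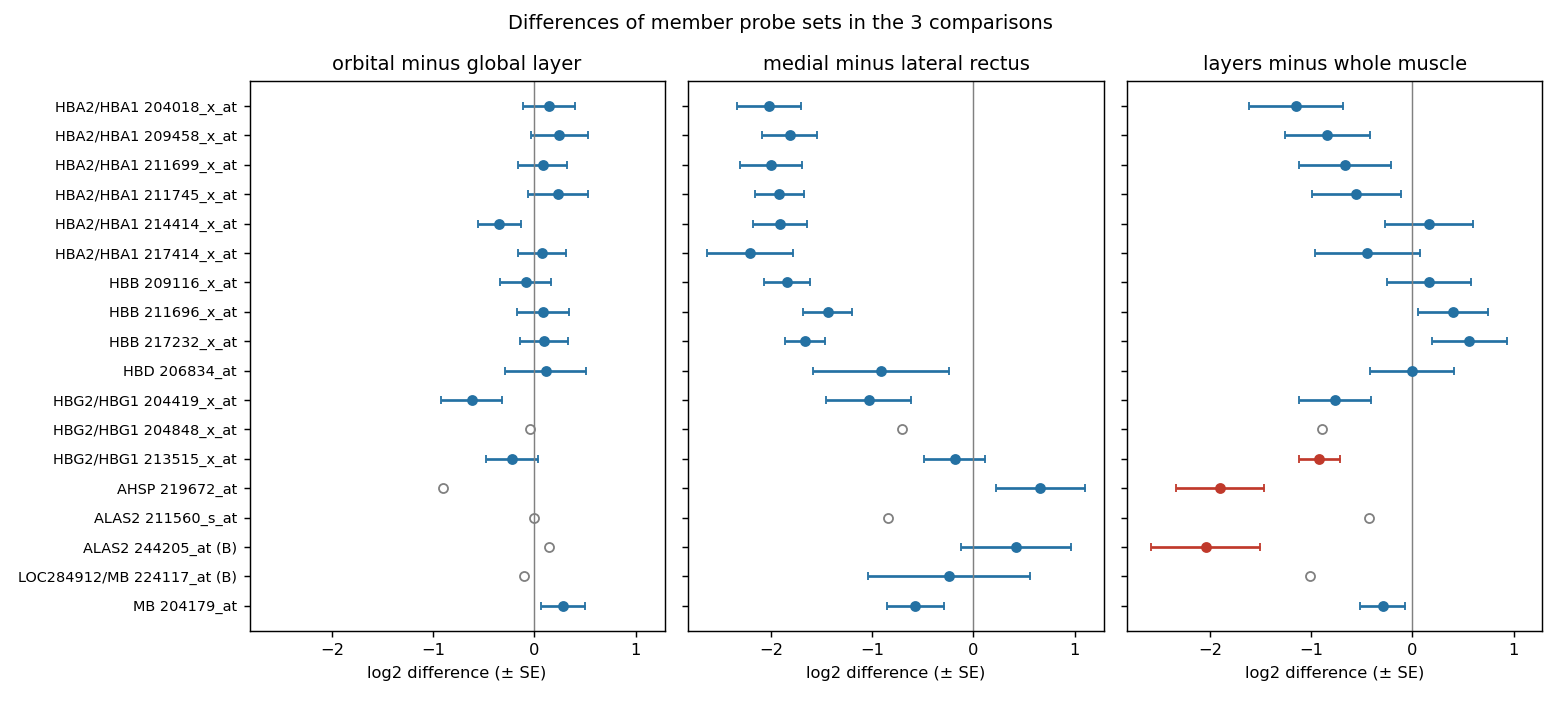
Log2 difference ± SE (limma) of the member probe sets in 3 comparisons; (B) is U133B. Red points passed the adjusted threshold, blue points did not, and open points were below the filter on low values, with no test. The 9 HBA1/HBA2 and HBB probe sets lie between −2.20 and −1.44 between the recti and between −0.35 and 0.25 between the layers.

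The minor and fetal chains had smaller differences. HBD had 926 and 313 units in the medial rectus and 908 and 1133 in the lateral rectus, so the groups overlapped (log2 difference −0.91 ± 0.68, adjusted p = 0.999 in limma). Its difference was −1.70 without medial rectus replicate 1 and −0.13 without medial rectus replicate 2. HBG1/HBG2 204419_x_at had 2165 and 918 in the medial, against 2731 and 3063 in the lateral rectus, with no overlap (−1.04 ± 0.42, adjusted p = 0.999 in limma), a difference of −1.65 without medial replicate 1 and −0.42 without medial replicate 2. HBG1/HBG2 213515_x_at had 5098 and 3046 in the medial, against 4929 and 4074 in the lateral rectus and differed by −0.19 ± 0.30. HBG1/HBG2 204848_x_at, which was below the filter, had 99.2 and 319.8 units in the medial, against 311 and 402 in the lateral rectus.

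AHSP and ALAS2, the haem-forming enzyme of red cell precursors, did not follow the globin chains between the recti. AHSP had 1136 and 2466 units in the medial rectus, against 1093 and 1025 in the lateral rectus: the medial arrays were the higher ones, with no overlap, which held for 15% of probe sets tested (log2 difference 0.66 ± 0.44, adjusted p = 0.999 in limma). Without medial rectus replicate 2, the difference was 0.10. ALAS2 on U133B had 2105 and 3410.2 units in the medial, against 1242 and 3226 in the lateral rectus, and the groups overlapped (0.42 ± 0.54, adjusted p = 0.991 in limma); on that type, 0 of 11836 probe sets passed and 406 (3.43%) had an unadjusted p under 0.05. ALAS2 on U133A was below the floor on 7 of the 8 arrays and at 474 units on lateral rectus replicate 2.

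Other genes of red cells showed no shared direction between the recti on U133A. Of 17 further red cell membrane and enzyme genes on U133A, 9 could be tested, of which 5 were higher and 4 lower in the medial rectus, and 0 passed; on U133B, all 4 tested were lower and 0 passed. Summed intensity over the 17 was 41169 and 47807 in the medial, against 38472 and 46044 in the lateral rectus, and 15 to 17 of them were above the floor. These sums are weighted to EPOR and ANK1 of the list, whose brightest probe sets averaged 18167 and 9269 units in whole muscle. CA1, the carbonic anhydrase of red cells, had on its less bright probe set 1539.9 and 1713 units in the medial, against 1631 and 1695 in the lateral rectus. KLF1, a transcription factor of red cell precursors, had 474 and 1380.3 in the medial, against 668 and 954 in the lateral rectus (a log2 difference of 0.02 ± 0.65). HBM, an alpha-like globin gene, had 199.7 and 1635 units in the medial, against 136 and 1226 in the lateral rectus of U133B, so that replicate 2 of either muscle was above the floor and replicate 1 was not. CA1, KLF1 and HBM were picked after their values were seen.

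Among white cell genes, S100A8, a calcium-binding protein of neutrophils and monocytes, had 870.1 and 418 units in the medial, against 2433 and 2954 in the lateral rectus, and its partner S100A9 had 379 and 292 against 2265 and 1854 (adjusted p = 0.991 and 0.736 in limma). Of the 14 neutrophil and monocyte genes, 7 could be tested, of which 4 were higher and 3 lower in the medial rectus. The list's summed intensity was 11181 to 11215 in the medial and 14026 to 14664 in the lateral rectus, with 13 to 14 and 12 genes above the floor. S100A8 and S100A9 are in this sum, and their mean differences together exceed the gap between the mean sums. Of 14 endothelial genes, 10 could be tested, 8 of them lower in the medial rectus and 0 passing; their sums overlapped, at 28462 to 42612 in the medial and 34477 to 39896 in the lateral rectus. The part of white cells and vessels in the globin difference was not tested.

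**Figure D3:**
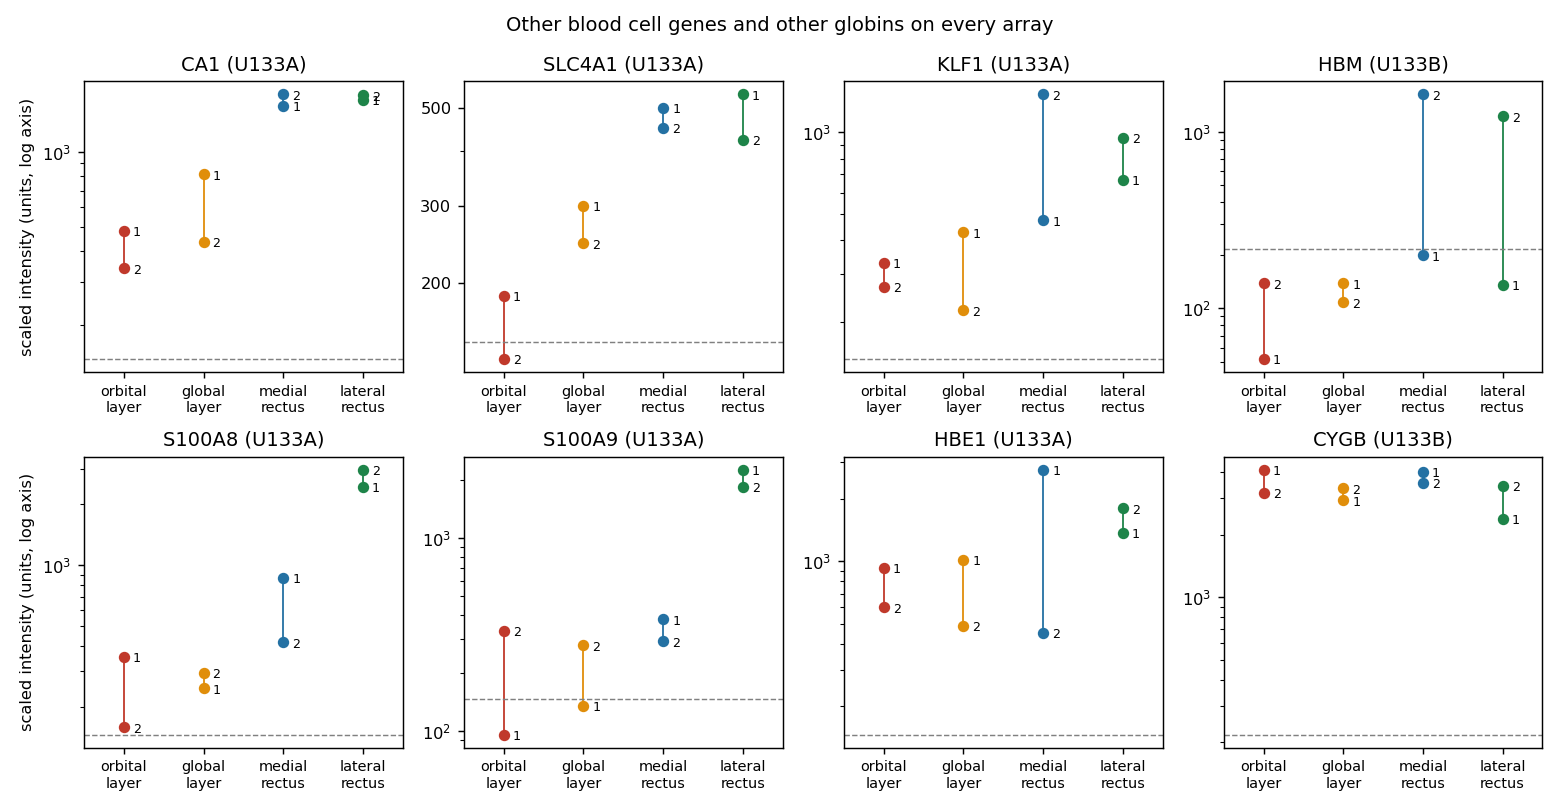
Scaled intensity (log axis, a separate range in each panel) of 8 genes outside the member list by group; digits are replicate numbers, lines join the 2 arrays of a group, and the dashed line is the floor. The genes were picked after their values were seen. S100A8 and S100A9 are higher in the lateral than in the medial rectus, as the adult globins are, whereas CA1 and SLC4A1 are about level between the recti. CA1 is drawn on its less bright probe set only.

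Myoglobin varied less between groups than the adult globin chains did. MB on U133A had 19845 and 17356 units in the orbital and 14483 and 16034 in the global layer, and 18805 and 15169 in the medial, against 33219 and 19035 in the lateral rectus. In order of the means, the lateral rectus was highest, then the orbital layer, the medial rectus and the global layer, and each group overlapped the next. Only lateral rectus replicate 1 stood above the rest. Between the recti the log2 difference was −0.57 ± 0.28, with no overlap (adjusted p = 0.999 in limma), and it was −0.17 without lateral rectus replicate 1. The second probe set, LOC284912/MB on U133B, had 588 and 1023 in the medial, against 764 and 1099.9 in the lateral rectus (−0.24 ± 0.80).

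Set against myoglobin array by array, adult globin RNA was still lower in the medial than in the lateral rectus, by less than before. The mean log2 of the 9 HBA1/HBA2 and HBB probe sets minus log2 of MB was −0.87 and −1.31 in the medial, against −0.07 and 0.48 in the lateral rectus, a difference of −1.29 between the means, beside −1.87 for the globin mean alone. It was −0.54 and −0.51 in the orbital and −0.37 and −0.23 in the global layer. Since different probe sets have different brightness, only its variation between arrays can be read, not its size. The medial arrays were the lowest of the 8 and the lateral arrays the highest, with the layers between them and the orbital arrays below the global arrays.

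**Figure D4:**
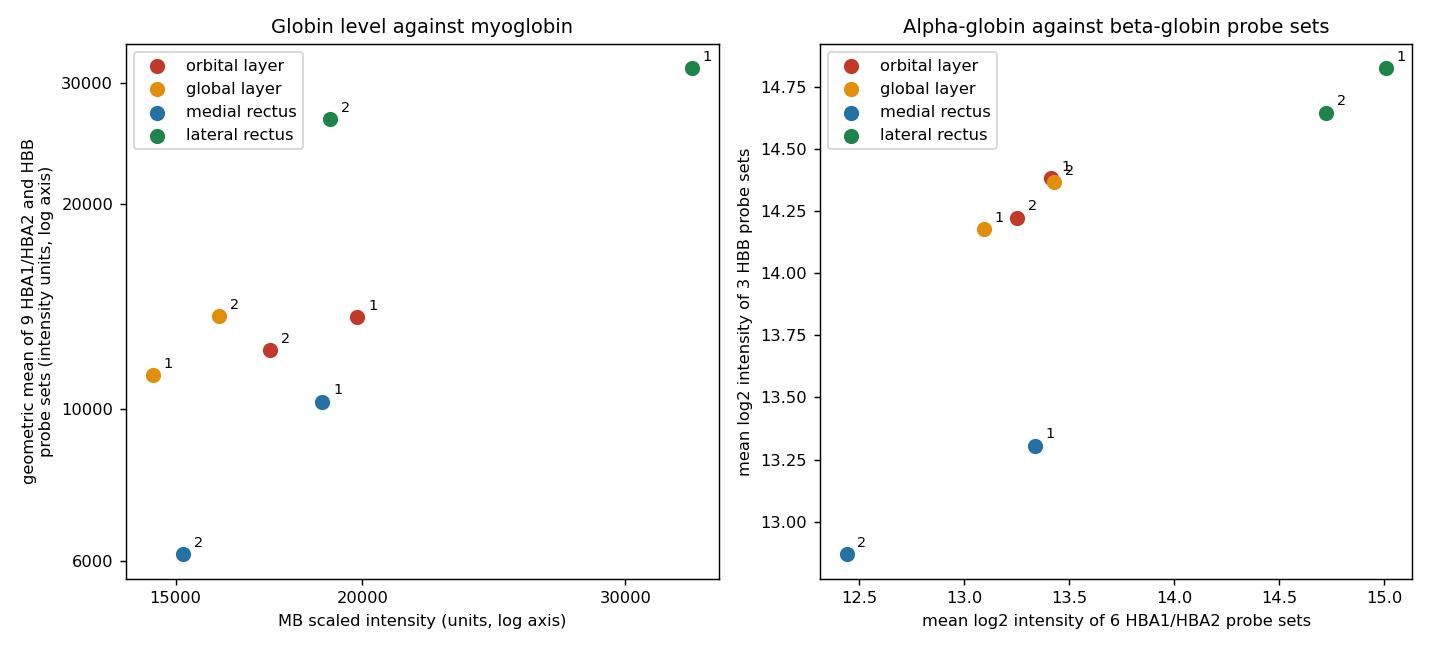
Left: geometric mean intensity of the 9 HBA1/HBA2 and HBB probe sets against MB intensity on U133A, both on log axes; right: mean log2 intensity of the 3 HBB against the 6 HBA1/HBA2 probe sets. Points are arrays and digits replicate numbers. On the left the medial arrays are lowest and the lateral arrays highest in globin, while MB is apart from the rest only on lateral rectus replicate 1; on the right the 4 layer arrays lie off the line of the whole muscle arrays.

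Between the orbital and global layers, the groups overlapped on 8 of the 9 adult globin probe sets. None of the 13 member probe sets that could be tested on U133A passed, where 39 of 9532 did (0.409%), and 0 of the 13 had an unadjusted p under 0.05, where 9.49% of all did. The 9 HBA1/HBA2 and HBB probe sets differed by −0.35 to 0.25 on the log2 scale, with SE 0.21 to 0.29. HBB 217232_x_at differed by 0.10 ± 0.24 and HBA1/HBA2 204018_x_at, at 8703 and 7399 units in the orbital and 6269.7 and 8446 in the global layer, by 0.14 ± 0.26. The sign of 8 of the 9 turned when 1 of the 4 arrays was left out, the exception being 214414_x_at, at 26578 and 24999 in the orbital and 36926 and 29148 in the global layer (−0.35 ± 0.21, adjusted p = 0.641 in limma). On that probe set both orbital arrays were below both global arrays, which held for 23.4% of all probe sets tested.

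Myoglobin was higher on both orbital arrays than on either global array, by 1.22-fold (log2 difference 0.28 ± 0.22, adjusted p = 0.707 in limma); 18.5% of probe sets tested were apart in that direction. Of fibre type genes on U133A, 11 of 17 tested oxidative fibre genes were higher in the orbital layer, where CSRP3, a Z-disc protein of slow and cardiac muscle, rose (3.07 ± 0.31, adjusted p = 0.0106 in limma). All 13 tested glycolytic fibre genes were lower, and ACTN3, the alpha-actinin of fast fibres, fell (−5.41 ± 0.55, adjusted p = 0.0106 in limma). The other members of these 2 lists did not pass. Over all probe sets tested on U133A, 46.0% were higher and the median was −0.04. On U133B, 2 of 3 tested oxidative fibre genes were lower in the orbital layer, among them CD36 (−1.29 ± 0.25), 1 was higher and 0 passed. The list summed there to 21416 to 23656 units in the orbital and 42622 to 53242 in the global layer. Most of that gap was CD36, with means of 16795 and 41510 units. On U133A the oxidative list summed the other way, to 417043 to 448590 in the orbital and 285827 to 397719 in the global layer.

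The fetal chains and AHSP were lower on both orbital arrays. HBG1/HBG2 204419_x_at had 975 and 939 units in the orbital and 1749 and 1237 in the global layer (log2 difference −0.62 ± 0.30, adjusted p = 0.561 in limma), and 213515_x_at had 1871 and 2269 against 2385 and 2420.5 (−0.22 ± 0.25). AHSP had 164 and 414 in the orbital and 509 and 467 in the global layer and was below the filter. These, too, are set beside the 23.4% of probe sets with no overlap in that direction. HBD, at 977 and 599 in the orbital and 852 and 588 in the global layer, overlapped. On U133B, ALAS2 had 507 and 686 in the orbital and 180.4 and 1312 in the global layer, and LOC284912/MB 363 and 450.5 against 421 and 446; both were below the filter there, where 2 of 9510 passed (0.021%). Of 10 red cell membrane and enzyme genes tested on U133A, 9 were lower in the orbital layer and 0 passed, and on U133B 1 of 2 was lower. AQP1, a water channel of capillaries and red cells, fell on U133A (−1.94 ± 0.26, adjusted p = 0.0306 in limma), and 10 of 11 endothelial genes tested there were lower. On U133B, 3 of 5 tested endothelial genes were higher in the orbital layer, 2 were lower and 0 passed. Their list summed to 27507 to 28587 units in the orbital and 25031 to 27377 in the global layer.

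Against whole muscle, the layers had lower AHSP and ALAS2 signal, and 1 probe set of the fetal chains was lower. AHSP had 164 and 414 units in the orbital and 509 and 467 in the global layer, against 1136, 2466, 1093 and 1025 on the medial and lateral arrays, with no overlap. It fell by 3.73-fold (389 ± 154 in layers and 1430.1 ± 692 in whole muscle, SD, n = 4 each; log2 difference −1.90 ± 0.44, adjusted p = 0.00398 in limma). Without any 1 of the 4 whole muscle arrays, and against either rectus alone, AHSP was below the filter and had no test. ALAS2 on U133B fell by 4.12-fold (671 ± 476 in layers and 2496 ± 1016 in whole muscle, SD, n = 4 each; −2.04 ± 0.54, adjusted p = 0.00954 in limma), although global layer replicate 2, at 1312, reached above lateral rectus replicate 1, at 1242. AHSP and ALAS2 were below the filter between the layers, so they entered this test only through the whole muscle arrays. With whole muscle as dim as the layers they would not have been tested, so their falls are not independent of the filter. HBG1/HBG2 213515_x_at fell by 1.89-fold, at 1871 to 2420.5 in layers and 3046 to 5098 in whole muscle (−0.92 ± 0.20, adjusted p = 0.00308 in limma).

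These calls stand in a wide shift between the sample kinds. Of 10533 probe sets tested on U133A, 5132 passed (48.7%), 3168 of them lower (30.1%) and 1964 higher in layers (18.6%), and 27.3% of all were lower with no overlap; on U133B 4510 of 10547 passed (42.8%), 22.3% of those tested being lower and 20.5% higher. The median log2 difference over all probe sets was −0.18 on U133A, and 0.00 after quantile normalization. Of the 14 member probe sets tested on U133A, 2 fell (AHSP and 213515_x_at) and 12 did not pass. After quantile normalization AHSP fell by 1.32, 213515_x_at by 0.90 and ALAS2 by 1.72 on the log2 scale, with adjusted p = 0.0321, 0.00588 and 0.0353 in limma.

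Other red cell genes fell more often than they rose in the layers on U133A, and not on U133B. Of the 9 further red cell membrane and enzyme genes tested on U133A, 5 fell and 2 rose. ANK1, the ankyrin of the red cell membrane, which muscle also makes, fell on its brightest probe set (log2 difference −2.19 ± 0.26, adjusted p = 0.000104 in limma), while its probe sets 205389_s_at and 205390_s_at did not pass (−0.47 and −0.01). CA1, on the same probe set, had 482 and 340.0 units in the orbital and 814 and 435 in the global layer, against 1539.9 to 1713 in whole muscle, and fell by 1.74 ± 0.29 on the log2 scale. Its layer mean of 518 units was under the filter of 654, so it was tested only through the whole muscle arrays. The fall of CA1 is thus not independent of the filter. RHAG, a partner of the Rh proteins, fell by 1.25 ± 0.21, and SELENBP1, a selenium-binding protein, rose by 0.96 ± 0.24. Summed over 17 genes, the list had 17809 to 25558 units in layers and 38472 to 47807 in whole muscle, with 12 to 13 and 15 to 17 genes above the floor. Most of the gap between these sums lay in ANK1 and EPOR, another gene of the list, which fell by 1.68 ± 0.21. EPOR averaged 5769 units in layers and 18167 in whole muscle, and the brightest ANK1 probe set 2180 and 9269. On U133B, 4 genes of the list were tested: EPB41, a membrane skeleton protein, rose by 1.88 ± 0.39, TRIM58, a ubiquitin ligase of red cell precursors, fell by 1.23 ± 0.43, and the other two did not pass. Their sums overlapped, at 5481 to 8805 units in layers and 3588 to 7262 in whole muscle. SLC25A37, the iron importer of mitochondria, fell by 1.86 ± 0.19, and 3 of 8 tested haem synthesis genes fell in all on U133A; on U133B, 1 of 5 rose, ABCB10, a mitochondrial transporter (1.05 ± 0.33), and SLC25A37 did not pass (0.22). TFRC, the receptor that takes up iron, rose by 1.32 ± 0.23.

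Most marker genes of platelets and white cells that could be tested on U133A were lower in the layers, where 30.1% of all probe sets tested fell. All 4 tested platelet genes fell, among them THBS1, thrombospondin, by 1.34 ± 0.27 and SELP, P-selectin, by 0.54 ± 0.21 on the log2 scale. The 12 genes of that list summed to 5423 to 7589.6 in layers and 11756 to 15056 in whole muscle, with 8 to 11 and 11 to 12 of 12 genes above the floor. Of 14 neutrophil and monocyte genes, only 4 could be tested, of which 3 fell and 1, VCAN, rose. Of 13 lymphocyte genes, 3 could be tested and 2 fell. Some of these genes entered the test only through whole muscle, as the filter was at 654 units. ITGB3 of the platelet list averaged 573 units in layers and 1763 in whole muscle, and S100A12 of the neutrophil list 455 and 1181. Their falls are not independent of the filter. GP1BA, SELP and FCGR3B, at 1026, 1807 and 737 units in layers, were above it there. Of 10 tested endothelial genes, 2 fell and 0 rose on U133A, while on U133B 2 of 4 rose. The part of blood cells, amplification and RNA length in these differences was not tested.

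Between layers and whole muscle, adult chain calls depended on the setting and on which whole muscle arrays were used. None of the 9 probe sets passed as tested. On the layers minus whole muscle scale the 6 HBA1/HBA2 probe sets differed by −1.15 to 0.17 and the 3 HBB probe sets by 0.16 to 0.56. HBA1/HBA2 204018_x_at came nearest (7704 ± 1111 in layers and 21508 ± 14739 in whole muscle, SD, n = 4 each; log2 difference −1.15 ± 0.46, adjusted p = 0.0583 in limma). The large SD of whole muscle is the distance between the recti: against the lateral rectus alone, all 6 HBA1/HBA2 probe sets fell, by 0.79 to 2.16 on the log2 scale, and 1 of 3 of HBB fell (209116_x_at, −0.76). Against the medial rectus alone, all 3 HBB probe sets rose, by 1.09 to 1.39, and of HBA1/HBA2 only 214414_x_at rose (1.12). After quantile normalization 2 HBA1/HBA2 probe sets fell, 204018_x_at (−1.52, adjusted p = 0.0213 in limma) and 209458_x_at (−1.22, adjusted p = 0.0378). Without medial rectus replicate 2, 5 HBA1/HBA2 probe sets fell (all but 214414_x_at), by 0.98 to 1.65 on the log2 scale. With all 4 groups in one fit, where the distance between recti is no error, 4 HBA1/HBA2 probe sets and HBG1/HBG2 204419_x_at fell and HBB 217232_x_at rose. The signs of HBB 209116_x_at and 211696_x_at and of HBA1/HBA2 214414_x_at turned after quantile normalization.

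The balance of averaged alpha to averaged beta signal separated the sample kinds, which neither average did alone. The mean log2 of the 6 HBA1/HBA2 probe sets minus that of the 3 HBB probe sets was −0.97 and −0.97 in the orbital and −1.08 and −0.94 in the global layer. In whole muscle it was 0.03 and −0.43 in the medial, against 0.18 and 0.08 in the lateral rectus. All 4 layer arrays were below all 4 whole muscle arrays, by 0.96 between the means. The alpha probe sets did not share this. Between layers and whole muscle 5 of the 6 were lower, but the brightest, 214414_x_at, differed by 0.17, much as HBB 209116_x_at did (0.16). The separation therefore depends on which alpha probe sets are averaged. This measure was chosen after the values were seen and has no test. The beta-actin ratio parts the same arrays, and its part in this was not tested.

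MB did not pass between layers and whole muscle (16929.6 ± 2271 in layers and 21557 ± 7974 in whole muscle, SD, n = 4 each; log2 difference −0.29 ± 0.22, adjusted p = 0.289 in limma). It passed after quantile normalization, at −0.83 with adjusted p = 0.00555 in limma. LOC284912/MB on U133B, below the filter, had 363 to 450.5 units in layers and 588 to 1099.9 in whole muscle, with no overlap, which held for 21.6% of probe sets tested there in that direction. HBD was level, at 754 ± 192 in layers and 820.0 ± 353 in whole muscle (SD, n = 4 each; −0.01 ± 0.41). Of 7 tested genes for regulators of myoglobin transcription on U133A, 5 rose in the layers, where 18.6% of all probe sets did, among them PPARGC1A, a coactivator of oxidative genes (1.38 ± 0.18), and PPP3CB, a calcineurin subunit (1.34 ± 0.14, adjusted p = 4.39e-05 in limma). The probe sets of MEF2C, a factor that binds the myoglobin promoter, disagreed: 209199_s_at differed by 0.88 ± 0.15 and 207968_s_at by −3.04 ± 0.43.

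Among 7759 probe sets of other genes, those whose log2 levels, centred on the mean of layers and of whole muscle, came closest to the adult globin profile over the 8 arrays were ANAPC2, POMGNT1, SCYL3, XPNPEP1 and PLCE1. Their root mean square differences were 0.170, 0.250, 0.252, 0.288 and 0.293, against a median of 0.743 over all searched. ANAPC2 had 425 and 303 units in the medial, against 1561 and 1104 in the lateral rectus. Closest to MB were CAPZB, VPS28, UNC45A, DCTN2 and PRDX6, at 0.0876 to 0.135 against a median of 0.425. MB itself was 0.498 away from the globin profile.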

How the data were processed

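The deposited tables hold linear intensity values, 1 per probe set and array. The 2% trimmed mean of each array was between 1500.2 and 1500.7 units, which is how the authors' scaling shows in the files. No source used here names the summary software or the genome build. Arrays were grouped by title; 4 of 8 rectus arrays were numbered in order of deposit. Members, gene lists, the likeness measure and alternatives were chosen with earlier results of these data known.

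Arrays were brought to 1 trimmed mean, values under the 20th percentile of a table were set to that percentile, and the log2 was used, so fold changes of dim probe sets are understated. Probe sets with a mean log2 over the arrays compared at or above that of the table's median (654 on U133A, 803 on U133B) were kept, without the 68 controls of each table. A probe set dim in 1 group could thus be kept through the other group alone. Tests were two-sided in limma 3.58.1 (R 4.3.3), with an intensity trend and Benjamini-Hochberg adjustment over all kept probe sets of a table. They were tested on simulated data. Figures were drawn in Python 3.11.15 with matplotlib 3.10.9.

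Every member probe set is given. From each of 14 gene lists, genes past the threshold (up to 6 a comparison by size) or else up to 3 with the smallest p could be named, each counted by its brightest probe set; genes outside this rule are said to be picked. Alternatives were quantile normalization, other floors and filters, no trend, 1 fit for all groups, arrays left out, the replicate block and, after seeing the data, each rectus alone as whole muscle and a filter on linear means. Symbols come from the platform annotation; 6 of 8 members matched the macaque RefSeq table by symbol or synonym. The replicate numbers were not used as pairs.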

Additional observations from a re-analysis of the deposited data

Results flagged for a closer look

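In 35 sets of 4 arrays (1 member probe set in the layers or in whole muscle), 3 held an array far from the other 3 by Dixon's test; chance gives about 1 in 20. AHSP on medial rectus replicate 2 was at 2466 units, and the other whole muscle arrays were at 1025 to 1136. ALAS2 on U133A was at 474 units on lateral rectus replicate 2, and the other whole muscle arrays, at 84.3 to 121, were below the floor. HBG1/HBG2 204848_x_at was at 156 units on global layer replicate 1, just above the floor, and the other layer arrays, at 45.7 to 108, were below it. The test used values set to the floor. For ALAS2 and 204848_x_at the other 3 arrays were thus equal, and any value above the floor would have been flagged. The rate of 1 in 20 does not apply to these flags.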

How the results depend on the processing

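Between the recti, the 9 HBA1/HBA2 and HBB probe sets were lower in the medial rectus under every alternative run; adjusted p in limma ranged from 0.00922 to 0.999, and calls on U133A numbered 7 with the 75th percentile filter and 0 to 9 with 1 array left out. With 1 array left out, HBD ranged from −1.70 to −0.13, HBG1/HBG2 204419_x_at from −1.65 to −0.42, 213515_x_at from −0.56 to 0.19, ALAS2 on U133B from −0.27 to 1.11 and LOC284912/MB from −0.50 to 0.16.

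Between the layers no member passed under any alternative. Calls on U133A (39) became 21 with quantile normalization, 0 with no filter, 12 with no trend, 92 with the replicate block, and 68 to 144 with 1 array left out. Calls on U133B (2) became 0 with quantile normalization, with the floor at the 5th percentile, with no filter and with no trend, 19 with the floor at the 40th, 23 with the 75th percentile filter, 10 in 1 fit of all groups, 26 with the replicate block, and 0 to 28 with 1 array left out. HBB 217232_x_at was 0.00 (−0.0033) after quantile normalization. With 1 array left out, HBA1/HBA2 ranged from −0.074 to 0.36 (204018_x_at), −0.077 to 0.57 (209458_x_at), −0.064 to 0.23 (211699_x_at), −0.16 to 0.62 (211745_x_at) and −0.029 to 0.18 (217414_x_at). HBB ranged from −0.34 to 0.16 (209116_x_at), −0.16 to 0.34 (211696_x_at) and −0.13 to 0.32 (217232_x_at), and HBD from −0.24 to 0.47. Deviations of same-numbered layer arrays correlated at 0.256 on U133A and 0.132 on U133B, over only 2 pairs.

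Between layers and whole muscle, the 75th percentile filter left 2513 calls on U133A and 2799 on U133B. Quantile normalization gave 0.61 for HBD, −0.31 and −0.11 for HBB 209116_x_at and 211696_x_at, −0.31 for HBA1/HBA2 214414_x_at and −0.83 for MB. Against the lateral rectus alone, chosen after seeing the data, U133B had 2871 calls, HBB was −0.76, −0.32 and −0.27, 214414_x_at −0.79, the median of the 9 −1.51, globin minus MB −0.62, and ALAS2 did not pass (adjusted p = 0.0846 in limma). Against the medial rectus alone, HBD was 0.45, HBA1/HBA2 0.069, 0.33, 0.41 and 0.66, the median 0.66 and globin minus MB 0.68. With 1 array left out, HBD ranged from −0.42 to 0.20, 217414_x_at from −1.02 to 0.072, 214414_x_at from −0.28 to 0.51, HBB 209116_x_at from −0.23 to 0.50, the median from −0.98 to 0.072 and globin minus MB from −0.26 to 0.34. AHSP was also below the 75th percentile filter. A filter on linear means, the first reading tried, changed no member's call. The causes were not tested.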

Other observations

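Globins outside the member list were few. HBZ and HBQ1, alpha-like globin genes, were below the floor on all 8 arrays of U133A. HBE1, the embryonic beta-like chain, had on its brighter probe set 933.5 and 601 units in the orbital and 1021 and 489 in the global layer, then 2757 and 454 in the medial, against 1371 and 1803 in the lateral rectus, so replicate 1 was the higher array in the layers and in the medial rectus, and replicate 2 in the lateral rectus. It did not pass in any of the 3 comparisons. CYGB, cytoglobin of connective tissue cells, had 2386 to 4092 units on U133B with no group apart from all others, and differed by 0.03 ± 0.24 between layers and whole muscle.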
